A study of Mus musculus with 13 samples.

Results

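The 57 genes described here encode the proteins that license, fire and elongate from mammalian replication origins. They were taken by symbol, and the list was chosen with earlier results of these data known. They fall into 6 groups: licensing (Orc1 to Orc6, Cdc6, Cdt1 and Gmnn, 9 genes), MCM (Mcm2 to Mcm9, 8 genes), firing (Mcm10, Cdc45, Gins1 to Gins4, Cdc7, Dbf4, Ticrr, Mtbp, Topbp1, Recql4 and Wdhd1, 13 genes), polymerases (subunits of the α-primase, δ and ε enzymes, 11 genes), clamp (Pcna, its loader RFC, the single-strand binding protein RPA, Fen1 and Lig1, 11 genes) and timing and fork (Rif1, Timeless, Tipin, Clspn and Ahctf1, 5 genes). All 57 were present among the 24079 genes of the RNA-seq count table, and all 57 were among the 13972 genes that passed the filter on low counts. Their RNA was compared between CGR8 cells, a line of mouse embryonic stem (ES) cells kept on gelatin with LIF, that had spent 48 h in 0.5% DMSO (control, 3 samples) and the same cells kept for 48 h in 10 μM PhenDC3 with 0.5% DMSO (PhenDC3, 3 samples). PhenDC3 is a small molecule that binds and stabilizes G-quadruplexes (G4), folded structures of guanine-rich DNA. Lists of origins mapped by sequencing of short nascent strands (SNS-seq) were at hand for 3 control and 2 PhenDC3 samples of the same cells and treatments. The labels do not say whether samples of a condition came from separate cultures, so that the p-values given here measure only the spread between these samples, which may be technical.

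Origins are licensed when ORC, with Cdc6 and Cdt1, loads rings made of Mcm2 to Mcm7 onto DNA, and geminin (Gmnn) blocks Cdt1 once replication has begun. The kinase Cdc7 with its partner Dbf4, together with cyclin-dependent kinases that act through Ticrr, Mtbp and Topbp1, then brings Cdc45 and the GINS complex to the ring, which becomes the moving helicase. Polymerase α-primase starts each new strand, polymerases ε and δ extend it on the clamp Pcna, and Fen1 and Lig1 join the fragments. Many of these genes are transcribed under E2F factors as cells enter S phase, and mouse ES cells are known to spend much of their cycle in that phase.

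The RNA-seq libraries held between 22232014 and 29486502 counts on genes. The ES markers Pou5f1, Sox2, Nanog, Zfp42, Esrrb, Klf4, Dppa5a and Tdgf1 were abundant in every sample, with a summed level of 7134 to 8090.1 normalised CPM (the counts of a gene per 1000000 counts of the normalised library) in the controls and 8207 to 9599.7 with PhenDC3, and Pou5f1 and Tdgf1 were lower and Nanog, Klf4 and Dppa5a higher with PhenDC3. Among 6 markers of primitive endoderm, 4 were higher with PhenDC3 (Gata6, Gata4, Sox17 and Pdgfra), and the sum of the 6 was 47.4 to 111 normalised CPM in the controls and 96.4 to 158 with PhenDC3. Fibroblast and mesoderm markers were low, with sums of 3.22 to 6.84 and 5.41 to 7.42 normalised CPM over all samples, and neural markers, mostly Tubb3, summed to 57.6 to 83.1. Thy1 of the fibroblast list (log2 fold change −1.31, adjusted p = 0.00228 in edgeR) and Pax6 of the neural list (−1.88, adjusted p = 0.00348) were lower with PhenDC3. Postn and Neurog2 were at 0 in all controls and Mesp1 in all PhenDC3 samples. The ribosomal RNA precursor Rn45s took 2.55% to 5.70% of the counts in the controls and 0.172% to 1.43% with PhenDC3. Without it, the same 23 members were called lower and 1 higher. The part of the marker changes in the results was not tested.

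More genes of the replication machinery were lower than higher with PhenDC3, and 14 of the 23 that were lower belonged to the polymerase and clamp groups. In edgeR's quasi-likelihood test with Benjamini-Hochberg adjustment over all genes, at an adjusted p of at most 0.05, 23 of the 57 members were lower (40.4%), 1 was higher (Ticrr) and 33 did not pass. Over all genes tested, 18.7% were lower and 18% were higher, or 36.8% in either direction. The median log2 fold change (PhenDC3 over control) of the members was −0.29, against 0.01 over all genes tested, and 46 of the 57 had a value below 0. Every PhenDC3 sample lay below every control for 26 members (45.6%), against 25.6% of all genes, and above every control for 1 member, against 25% of all genes. Without PhenDC3 replicate 1 the members called lower were 14 (11.4% of all genes), and without PhenDC3 replicate 3 they were 15 (13.2%). These counts and medians describe the list and carry no test of it.

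The groups differed in how many of their members were lower. In the polymerase group 7 of 11 genes were lower (63.6%, median log2 fold change −0.49), and in the clamp group likewise 7 of 11 (63.6%, median −0.40). Licensing had 3 of 9 lower (33.3%, median −0.21), MCM 2 of 8 (25%, median −0.20), firing 3 of 13 (23.1%, median −0.16) with 1 higher, and timing and fork 1 of 5 (20%, median −0.05). The last 4 shares stood between 20% and 33.3%, beside a background of 18.7%. The difference between the groups was not tested. Without PhenDC3 replicate 1 the lower genes were 5 of 11 in the polymerase group, 4 of 11 in the clamp group and 1 of 13 in the firing group, and without PhenDC3 replicate 3 they were 6, 4 and 1. The MCM count was 0 in 5 of the 6 fits that each left out 1 sample, the exception being control replicate 2. Summed over its members, the polymerase group had 1077, 1134 and 1279 normalised CPM in the controls and 876, 821 and 894 with PhenDC3, and the clamp group had 2396, 2284 and 2554 against 1817, 1627 and 1823. The 9 licensing genes summed to 1027, 1023 and 1033 against 866, 825 and 882. In these 3 groups no PhenDC3 sample reached the lowest control, whereas the sums of the MCM, firing and timing and fork groups overlapped between the conditions. In such bulk samples, fewer cells in S phase and less RNA of these genes in each cell cannot be told apart.

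**Figure D1:**
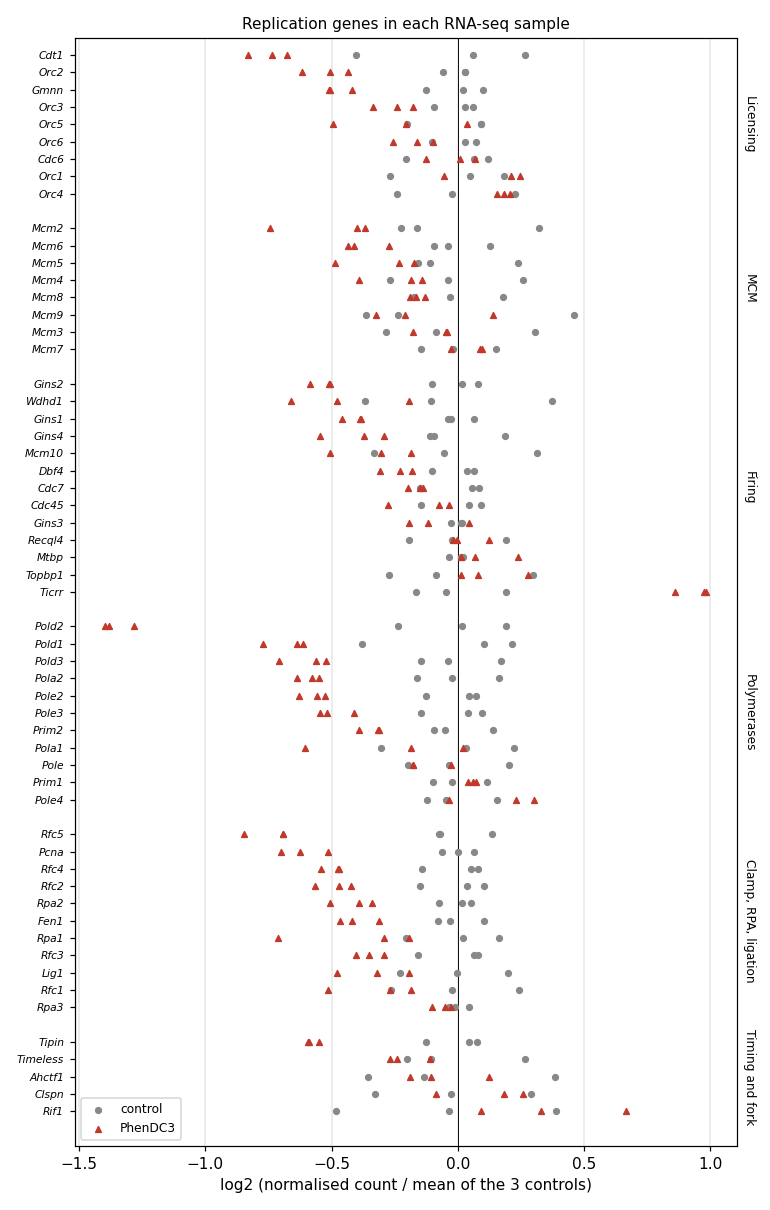
Normalised counts of the 57 members in each RNA-seq sample, as log2 of the ratio to the mean of the 3 controls (x axis), with 1 gene per line, ordered within each group by fold change (grey circles, control; red triangles, PhenDC3). The triangles of Pold2 stand farthest to the left and those of Ticrr farthest to the right, and for 26 genes all triangles lie left of all circles.

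The plot of each sample's value shows where the spread lies. For genes such as Mcm2, Wdhd1 and Rif1 the 3 controls were themselves far apart, whereas for Tipin, Gins2 and Pole2 the 3 samples of a condition lay close together. The companion plot of fitted changes gives the same genes with their standard errors.

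**Figure D2:**
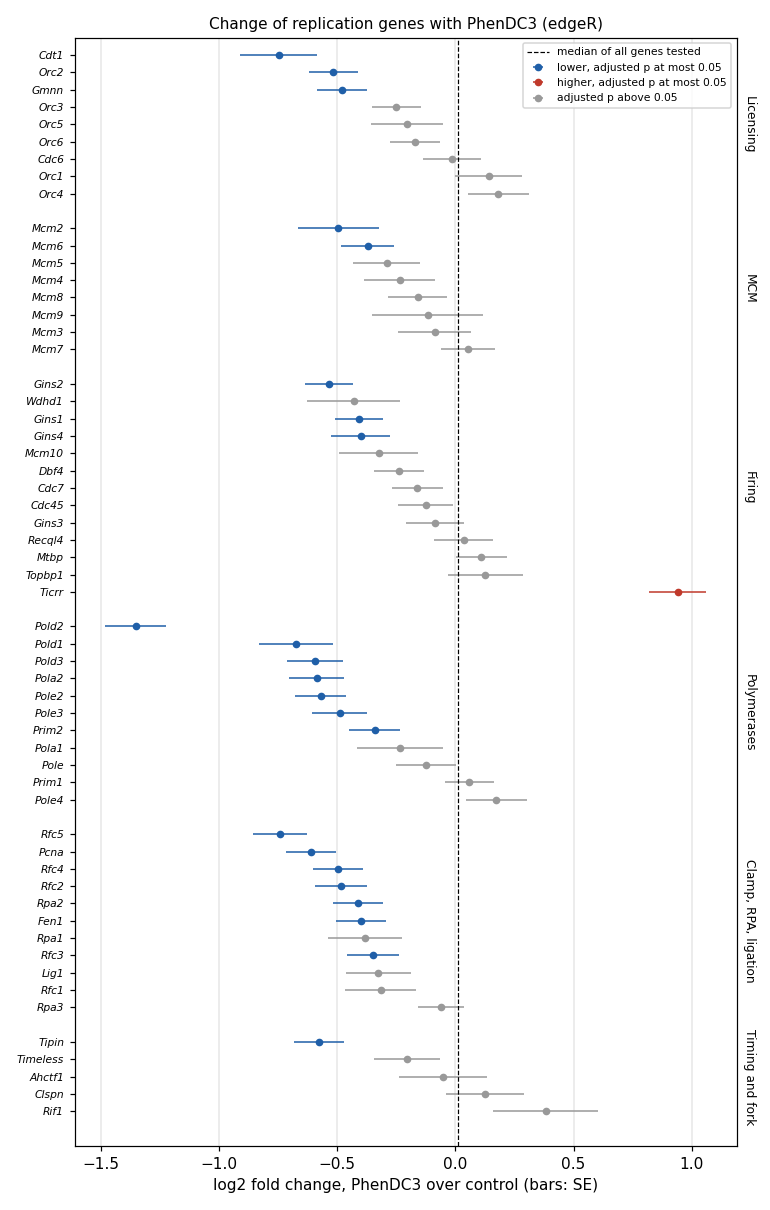
Log2 fold change (PhenDC3 over control, x axis) of each member from edgeR, with its standard error as a bar (3 samples per condition), by group. Blue marks the 23 members lower and red the 1 higher at an adjusted p of at most 0.05, grey marks the 33 others, and the dashed line is the median of all genes tested (0.01).

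Promoters are shown for 4 members: Cdt1 (largest fall in the licensing group), Mcm6 (3 E2F words, with a call that was lost in most fits with a sample left out), Pold2 (largest fall of all members) and Ticrr (the only rise). Each run covers 250 bases before and 50 bases from the transcription start in the gene's own direction, from RefSeq on GRCm38.p6 (mm10). Capitals mark E2F words (TTTCCCGC, TTTCGCGC, TTTGCCGC or TTTGGCGC on either strand) and predicted G4 (at least 4 runs of 3 or more G on either strand, with loops of 1 to 7 bases). The Cdt1 window is chr8:122567765-122568064 on the + strand, with a G4 of 29 bases read on the opposite strand (C runs) and an E2F word 32 bases after the start. Mcm6 lies at chr1:128359656-128359955 on the − strand, with a G4 of 25 bases and 3 E2F words, of which the first 2 overlap. The window of Mcm2, the MCM gene with the largest fall, is not shown and held a G4 of 20 bases and no E2F word. The Pold2 window, the upstream of 2 annotated starts, is chr11:5878207-5878506 on the − strand and holds a G4 of 17 bases and no E2F word. The window of the other start, chr11:5877614-5877913, has neither. Ticrr, at chr7:79659946-79660245 on the + strand, had neither of these. The CCAAT word (either strand) occurred 4 times in the Ticrr window. It occurred 3 times in the printed Pold2 window, 2 times in that of Mcm6 and 0 times in that of Cdt1.
Cdt1: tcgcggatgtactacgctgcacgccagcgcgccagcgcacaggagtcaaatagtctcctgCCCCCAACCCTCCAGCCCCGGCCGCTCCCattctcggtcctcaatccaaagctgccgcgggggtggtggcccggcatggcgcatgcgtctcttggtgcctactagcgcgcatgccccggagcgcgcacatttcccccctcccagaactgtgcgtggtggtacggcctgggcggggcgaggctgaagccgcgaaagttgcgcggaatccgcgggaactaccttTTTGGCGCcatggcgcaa
Mcm6: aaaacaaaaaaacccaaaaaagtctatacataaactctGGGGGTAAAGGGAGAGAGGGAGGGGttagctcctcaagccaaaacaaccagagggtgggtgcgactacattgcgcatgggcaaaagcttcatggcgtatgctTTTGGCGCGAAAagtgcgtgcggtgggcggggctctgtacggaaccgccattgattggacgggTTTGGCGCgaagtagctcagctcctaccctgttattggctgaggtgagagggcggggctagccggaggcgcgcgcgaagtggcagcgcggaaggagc
Pold2: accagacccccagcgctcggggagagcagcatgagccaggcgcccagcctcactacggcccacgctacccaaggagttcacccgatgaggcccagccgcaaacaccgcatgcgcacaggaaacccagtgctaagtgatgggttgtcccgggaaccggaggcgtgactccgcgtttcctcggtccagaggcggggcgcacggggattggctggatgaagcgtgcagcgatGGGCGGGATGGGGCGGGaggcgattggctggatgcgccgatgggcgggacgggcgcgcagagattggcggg
Ticrr: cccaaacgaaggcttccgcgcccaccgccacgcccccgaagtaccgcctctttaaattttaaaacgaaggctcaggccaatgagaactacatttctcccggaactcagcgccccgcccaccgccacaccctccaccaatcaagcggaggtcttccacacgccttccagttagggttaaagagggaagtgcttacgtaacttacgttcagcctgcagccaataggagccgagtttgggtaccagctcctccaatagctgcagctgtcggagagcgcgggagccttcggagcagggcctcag

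Of the licensing genes, Cdt1, Orc2 and Gmnn were lower with PhenDC3, while the other 5 ORC subunits and Cdc6 did not pass the test. Cdt1, which brings the MCM ring to ORC, had 114, 182 and 157 normalised CPM in the controls and 90.6, 94.4 and 84.96 with PhenDC3. Its lowest control stood above all 3 PhenDC3 samples, and its log2 fold change was −0.75 ± 0.16 (SE; edgeR, adjusted p = 0.00745). The fitted level fell by 40.4%, and the controls were more spread than the PhenDC3 samples. Gmnn, the inhibitor of Cdt1, had 150.5, 159 and 136 normalised CPM in the controls and 104, 111 and 104 with PhenDC3. It too showed no overlap between the conditions (log2 fold change −0.48 ± 0.11, adjusted p = 0.00805). The ratio of Cdt1 to Gmnn counts was 0.760, 1.142 and 1.16 in the controls and 0.870, 0.851 and 0.813 with PhenDC3, so that the activator and its inhibitor kept overlapping ratios.

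Orc2, a core subunit of ORC, had 158, 158 and 149 normalised CPM in the controls and 115, 101 and 109 with PhenDC3, with −0.52 ± 0.10 as its log2 fold change (adjusted p = 0.00492) and a gap between the conditions wider than the spread within either. Orc5, also a core subunit, had 111, 90.2 and 110.5 normalised CPM in the controls and 89.9, 73.7 and 106 with PhenDC3. Its conditions overlapped (log2 fold change −0.21 ± 0.15, adjusted p = 0.316). Cdc6, the ATPase that completes ORC before loading, had 115, 95.3 and 119 normalised CPM in the controls and 115, 101 and 110.3 with PhenDC3. The PhenDC3 samples of Cdc6 lay inside the range of its controls, and the fitted log2 fold change was −0.01 ± 0.12 (adjusted p = 0.936). Orc4 had the highest fitted value of the group (log2 fold change 0.18 ± 0.13, adjusted p = 0.3), from 69.5, 58.6 and 50.4 normalised CPM in the controls and 67.6, 68.7 and 66.3 with PhenDC3. Its lowest PhenDC3 sample lay below its highest control. All 6 licensing genes that did not pass had log2 fold changes between −0.25 and 0.18, with 4 below 0, and adjusted p between 0.0877 and 0.936.

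The 6 subunits of the MCM ring were abundant, and 2 of them were called lower with PhenDC3. Per kilobase of annotated exon, the levels in the controls ran from Mcm7 (192 ± 19.96 normalised CPM per kb, SD, n = 3) through Mcm3 (183 ± 39.01), Mcm5 (164 ± 25.5), Mcm2 (147 ± 31.7) and Mcm4 (102 ± 18.9) to Mcm6 (98.1 ± 7.89). Neighbours in this order differed by less than the larger of their SDs, except Mcm2 and Mcm4. With PhenDC3 the order was the same, from 199 ± 9.48 for Mcm7 to 75.8 ± 4.63 for Mcm6. Mcm8 and Mcm9, relatives of the ring subunits that serve in DNA repair, stood at 7.51 ± 0.930 and 1.08 ± 0.352 normalised CPM per kb in the controls.

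Mcm2 and Mcm6 were the ring subunits called lower. Mcm2 had 443, 424 and 617 normalised CPM in the controls and 383, 295 and 375 with PhenDC3, and control replicate 3 stood well above the other 2 controls. All 3 PhenDC3 samples lay below the lowest control (log2 fold change −0.50 ± 0.17, adjusted p = 0.0476). For Mcm6 the samples had 423, 407 and 474 normalised CPM in the controls and 359, 321 and 327 with PhenDC3, again without overlap (log2 fold change −0.37 ± 0.11, adjusted p = 0.0286). Both calls were weak: in the 6 fits that each left out 1 sample, only the one without control replicate 2 kept either, and the adjusted p of the other 5 lay between 0.0666 and 0.14 for Mcm2 (log2 fold change −0.57 to −0.31) and between 0.0513 and 0.0933 for Mcm6 (−0.42 to −0.31).

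The other ring subunits did not pass. Mcm3 had 521, 455 and 685 normalised CPM in the controls and 537, 490.2 and 537 with PhenDC3, and its PhenDC3 samples lay inside the range of the controls (log2 fold change −0.09 ± 0.15, adjusted p = 0.686). Mcm4 had 358, 305 and 439 normalised CPM in the controls and 323, 279.5 and 332 with PhenDC3, with overlap (log2 fold change −0.24 ± 0.15, adjusted p = 0.242). Mcm7, with 599.9, 549.6 and 675 normalised CPM in the controls and 647, 596 and 649.8 with PhenDC3, had the highest fitted value of the group (log2 fold change 0.05 ± 0.11, adjusted p = 0.745). Its PhenDC3 samples also fell within the range of the controls. With Mcm5, Mcm8 and Mcm9, the 6 genes of the group that did not pass had log2 fold changes between −0.29 and 0.05 and adjusted p between 0.14 and 0.745. In Mcm3, Mcm4 and Mcm7 control replicate 3 was the highest of the controls and replicate 2 the lowest.

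Among the 13 firing factors 3 were lower (23.1%, against 18.7% of all genes), all of them among the 4 GINS subunits. Ticrr was higher, and the remaining 9 genes did not pass. GINS is the part of the helicase that binds Cdc45 and the MCM ring. Gins2 had 73.2, 70.2 and 64.6 normalised CPM in the controls and 48.8, 48.6 and 46.2 with PhenDC3. Gins1 had 48.7, 51.9 and 48.4 normalised CPM in the controls and 38.02, 38.1 and 36.2 with PhenDC3. For Gins4 the samples had 62.8, 76.5 and 62.3 normalised CPM in the controls and 51.9, 54.8 and 45.96 with PhenDC3. In each of them all PhenDC3 samples lay below all controls, with log2 fold changes of −0.53 ± 0.10, −0.41 ± 0.10 and −0.40 ± 0.13 (adjusted p = 0.00413, 0.0128 and 0.0337). Gins3, the subunit with the lowest level per length (7.09 ± 0.120 normalised CPM per kb in the controls, SD, n = 3), had 17.3, 16.8 and 17.3 normalised CPM in the controls and 15.7, 17.6 and 14.96 with PhenDC3 and did not pass (log2 fold change −0.09 ± 0.12, adjusted p = 0.613). Gins1 shares 24.5% of its exon bases with a gene on the same strand (Gm20550) and Gins2 11.4% with one on the opposite strand (Gse1), so that some of their reads cannot be assigned with certainty. The call of Gins1 was lost without PhenDC3 replicate 1 (adjusted p = 0.0575) or replicate 3 (0.0525), and that of Gins4 without control replicate 2 (0.0907), PhenDC3 replicate 1 (0.0986) or PhenDC3 replicate 3 (0.121). With 1610, 1038 and 1364 bp, Gins1, Gins2 and Gins4 lie in the quintile with the shortest exons, where 30.6% of all genes were lower. Under the correction for exon length and GC content given below, Gins1 (edgeR adjusted p = 0.0636) and Gins4 (0.111) were not called. Gins2 kept its call there (log2 fold change −0.29, edgeR adjusted p = 0.0451).

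Ticrr (treslin), through which cyclin-dependent kinases act on the MCM ring, was the only member called higher. It had 89.9, 97.7 and 115 normalised CPM in the controls and 199.7, 198 and 183 with PhenDC3. The lowest PhenDC3 sample exceeded the highest control by more than the spread within either condition, and the log2 fold change was 0.94 ± 0.12 (adjusted p = 0.000653), a rise of 91.8%. Its binding partner Mtbp had 38.5, 39.8 and 39.99 normalised CPM in the controls and 39.8, 46.6 and 41.4 with PhenDC3, with overlapping conditions (log2 fold change 0.11 ± 0.11, adjusted p = 0.458). The ratio of Ticrr to Mtbp counts was 2.33, 2.45 and 2.88 in the controls and 5.02, 4.25 and 4.42 with PhenDC3, without overlap. Topbp1, which joins the Ticrr complex, had 222, 195 and 289 normalised CPM in the controls and 248, 237 and 285 with PhenDC3, and did not pass (log2 fold change 0.13 ± 0.16, adjusted p = 0.557). Ticrr was called in all 6 fits that left out a sample, with log2 fold changes between 0.86 and 1.04.

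Cdc45, the helicase subunit recruited at firing, had 75.9, 66.5 and 78.3 normalised CPM in the controls and 71.8, 60.8 and 69.8 with PhenDC3. Its conditions overlapped (log2 fold change −0.13 ± 0.12, adjusted p = 0.427). With Mtbp, Topbp1 and Gins3, the 9 firing genes that did not pass had log2 fold changes between −0.43 (Wdhd1, a polymerase α cofactor) and 0.13, with 6 below 0 and adjusted p between 0.103 and 0.843.

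The polymerase group held the largest fall of all members. Pold2, the B subunit of polymerase δ, had 158, 189 and 213 normalised CPM in the controls and 76.8, 70.8 and 71.5 with PhenDC3. All PhenDC3 samples lay far below all controls, and the log2 fold change was −1.35 ± 0.13 (adjusted p = 0.000161), so that the level fell by 60.8%. Pold1, the catalytic subunit, had 122, 171 and 185 normalised CPM in the controls and 102, 93.2 and 104 with PhenDC3, with the conditions apart and control replicate 1 nearest to the PhenDC3 samples (log2 fold change −0.67 ± 0.16, adjusted p = 0.0096). Pold3, an accessory subunit, had 84.05, 78.1 and 97.3 normalised CPM in the controls and 58.6, 52.9 and 60.2 with PhenDC3, also without overlap (log2 fold change −0.59 ± 0.12, adjusted p = 0.00512). The ratio of Pold2 to Pold1 counts was 1.29, 1.10 and 1.15 in the controls and 0.750, 0.760 and 0.687 with PhenDC3. All ratios with PhenDC3 lay below all ratios of the controls. Pold2 has 1694 bp of exon and Pold1 4639 bp. Under the correction for exon length and GC content given below, Pold2 stood at −1.16 and Pold1 at −0.72 on the log2 scale. The difference between these 2 genes was not tested. Per kilobase of exon, Pold2 stood at 110.1 ± 16.1 normalised CPM per kb in the controls and 43.1 ± 1.93 with PhenDC3 (SD, n = 3), against 34.3 ± 7.04 and 21.5 ± 1.26 for Pold1. Pold4, another subunit of polymerase δ, is counted below with the other pathway genes. It had 4.16, 4.88 and 2.98 normalised CPM in the controls and 4.54, 5.35 and 4.94 with PhenDC3. Its conditions overlapped, and it did not pass (log2 fold change 0.30 ± 0.22, edgeR adjusted p = 0.304).

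Of polymerase ε, the accessory subunits Pole2 and Pole3 were called lower, and the accessory subunit Pole4 and the catalytic subunit Pole were not. Pole2 had 51.3, 45.6 and 52.2 normalised CPM in the controls and 33.7, 32.2 and 34.5 with PhenDC3, and the samples of each condition lay close together (log2 fold change −0.57 ± 0.11, adjusted p = 0.0038). Pole3, a histone-fold subunit, had 33.2, 37.7 and 39.2 normalised CPM in the controls and 25.6, 25.1 and 27.6 with PhenDC3, with a clear gap (log2 fold change −0.49 ± 0.12, adjusted p = 0.0105). Its call was lost without PhenDC3 replicate 1 (adjusted p = 0.0549). Pole4, the histone-fold partner of Pole3, had 69.3, 79.8 and 65.7 normalised CPM in the controls and 84.05, 88.2 and 69.96 with PhenDC3, overlapping between the conditions (log2 fold change 0.17 ± 0.13, adjusted p = 0.318). The catalytic subunit Pole had 139.8, 157 and 185 normalised CPM in the controls and 142, 142 and 157 with PhenDC3, with overlap (log2 fold change −0.13 ± 0.13, adjusted p = 0.471). Under the correction for exon length and GC content given below, Pole was called lower (log2 fold change −0.32, edgeR adjusted p = 0.0332). Pole3 was then not called (−0.19, adjusted p = 0.281). The differences between the subunits were not tested.

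Of polymerase α-primase, the regulatory subunits of both enzymes were lower. Pola2 had 104, 115 and 131 normalised CPM in the controls and 79.5, 74.9 and 78.2 with PhenDC3, without overlap (log2 fold change −0.59 ± 0.11, adjusted p = 0.00446). Prim2, the large primase subunit, had 71.8, 61.1 and 62.9 normalised CPM in the controls and 52.6, 49.7 and 52.4 with PhenDC3, and its samples were separated by a narrow gap (log2 fold change −0.34 ± 0.11, adjusted p = 0.0352). The call of Prim2 was lost without control replicate 1 (adjusted p = 0.103) or PhenDC3 replicate 1 (0.109), 2 (0.113) or 3 (0.0853). The catalytic subunits Pola1 and Prim1 did not pass, with log2 fold changes of −0.23 ± 0.18 and 0.06 ± 0.10 (adjusted p = 0.345 and 0.686). Pola1 was called lower under the correction for exon length and GC content given below (log2 fold change −0.43, edgeR adjusted p = 0.0419). Pola2 and Prim2 kept their calls there, and Prim1 did not pass. The difference between regulatory and catalytic subunits was not tested. Over the 4 polymerase genes that did not pass, the adjusted p ran from 0.318 to 0.686.

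The clamp and its loader were lower in 5 of 6 genes. Pcna, the sliding clamp that holds polymerase δ and ε on DNA and the member with the highest level (510.1 ± 22.4 normalised CPM per kb in the controls), had 643, 614 and 671 normalised CPM in the controls and 417, 395 and 449.7 with PhenDC3. The highest PhenDC3 sample was well below the lowest control (log2 fold change −0.61 ± 0.11, adjusted p = 0.00252), and the level fell by 34.6%. The annotation also names 2 Pcna pseudogenes (Pcna-ps1 and Pcna-ps2), and how reads shared with them were counted is not given in the sources used here.

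The RFC complex loads Pcna onto primed DNA. Rfc5 had 201, 233 and 202 normalised CPM in the controls and 131, 131 and 118 with PhenDC3, the largest fall of the group (log2 fold change −0.74 ± 0.11, adjusted p = 0.00132). Rfc4 had 74.4, 76.00 and 65.1 normalised CPM in the controls and 49.4, 51.7 and 51.8 with PhenDC3. Rfc2 had 112, 117 and 98.7 normalised CPM in the controls and 78.9, 81.7 and 73.96 with PhenDC3. Neither gene overlapped between the conditions, with log2 fold changes of −0.50 ± 0.11 and −0.49 ± 0.11 (adjusted p = 0.00693 and 0.00877). Rfc4 shares 13.2% of its exon bases with Eif4a2 on the opposite strand. Rfc3 had 58.5, 57.7 and 49.6 normalised CPM in the controls and 43.3, 45.1 and 41.8 with PhenDC3, separated by a smaller gap (log2 fold change −0.35 ± 0.11, adjusted p = 0.0352), and its call was kept in only 1 of the 6 fits that left out a sample, the one without control replicate 3 (adjusted p between 0.071 and 0.121 in the other 5, those without control replicate 1 or 2 or any PhenDC3 replicate). Rfc1, the large subunit, did not pass and had 214, 181 and 257 normalised CPM in the controls and 180.5, 153 and 191 with PhenDC3, with overlap (log2 fold change −0.32 ± 0.15, adjusted p = 0.131).

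Of RPA, which coats single-stranded DNA, only the middle subunit was called. Rpa2 had 174, 190.4 and 186 normalised CPM in the controls and 139.8, 145 and 129 with PhenDC3, with a gap between the conditions (log2 fold change −0.41 ± 0.10, adjusted p = 0.0142). Its call was lost without PhenDC3 replicate 1 (adjusted p = 0.063) or replicate 3 (0.0623). Rpa1, the large DNA-binding subunit, had 431, 369.5 and 476 normalised CPM in the controls and 372, 259.6 and 348 with PhenDC3. PhenDC3 replicate 1 just exceeded control replicate 2 there, and the gene did not pass (log2 fold change −0.38 ± 0.16, adjusted p = 0.0878). Rpa3, the small subunit, had 52.8, 50.9 and 50.02 normalised CPM in the controls and 50.2, 47.7 and 49.5 with PhenDC3, nearly the same in all samples (log2 fold change −0.06 ± 0.10, adjusted p = 0.663). Since passing the test in 1 subunit and not in another is no test of a difference between them, the 3 values stand side by side.

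Fen1, the nuclease that trims Okazaki fragments, had 120.4, 124 and 137 normalised CPM in the controls and 102, 91.8 and 95.2 with PhenDC3. No PhenDC3 sample reached the controls (log2 fold change −0.40 ± 0.11, adjusted p = 0.0177), but the call was lost without PhenDC3 replicate 1 (adjusted p = 0.0517), 2 (0.0693) or 3 (0.0623). The ligase Lig1, which seals the trimmed fragments, had 314, 268 and 361 normalised CPM in the controls and 252, 226 and 275 with PhenDC3, with overlap, and did not pass (log2 fold change −0.33 ± 0.14, adjusted p = 0.094).

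In the timing and fork group only Tipin was called. Tipin, the partner of Timeless in the complex that steadies the fork, had 302, 308 and 268 normalised CPM in the controls and 195, 194 and 199.8 with PhenDC3. Its PhenDC3 samples lay close together and far below the controls (log2 fold change −0.58 ± 0.11, adjusted p = 0.00324). Timeless itself had 135, 144 and 187 normalised CPM in the controls and 129, 132 and 144 with PhenDC3, with overlap (log2 fold change −0.21 ± 0.14, adjusted p = 0.273). Rif1, which sets the time at which regions replicate, had 367, 269 and 491 normalised CPM in the controls and 471, 401 and 596 with PhenDC3. Its samples were widely spread in both conditions (log2 fold change 0.38 ± 0.22, adjusted p = 0.205), and without control replicate 3, the highest control, it passed as higher (log2 fold change 0.62, adjusted p = 0.0369). Ahctf1 (ELYS), a nucleoporin that binds chromatin, had 233, 199.5 and 334 normalised CPM in the controls and 237, 224 and 278 with PhenDC3, the PhenDC3 samples lying inside the range of the controls (log2 fold change −0.05 ± 0.19, adjusted p = 0.85).

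**Figure D3:**
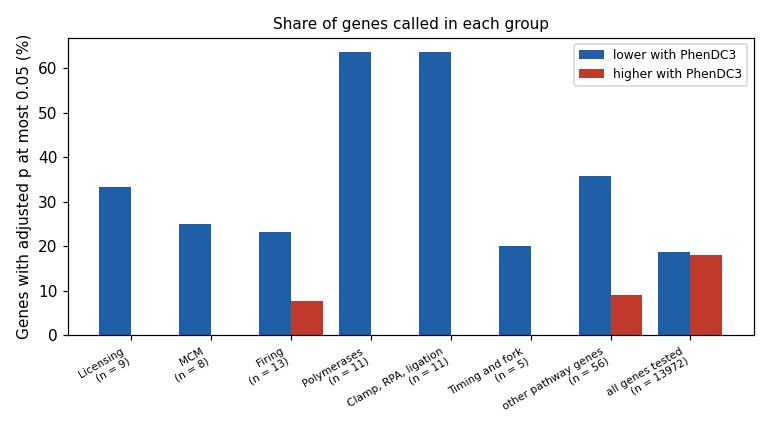
Share of genes (y axis, percent) that were lower (blue) or higher (red) with PhenDC3 at an adjusted p of at most 0.05 in edgeR, for each group of members, the other pathway genes and all genes tested, with the number of genes under each pair of bars. The polymerase and clamp bars reach 63.6% lower, against 18.7% lower and 18% higher for all genes.

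The bar plot of shares sets the groups beside 56 other genes of the same pathways, of which 20 were lower (35.7%), 5 higher and 31 did not pass (median log2 fold change −0.27). Over all genes tested, 18.7% were lower and 18% higher. Of 13 genes of E2F, its partners and Rb1, 5 were lower (38.5%) and 2 higher (15.4%). Of 21 further fork genes 6 were lower (28.6%) and 1 higher (4.76%). Of 10 further licensing and origin regulators 3 were lower (30%) and 1 higher (10%), and of 5 S-phase kinase genes 1 was lower (20%). Of 7 genes of nucleotide supply 5 were lower (71.4%, median log2 fold change −0.50) and 1, Rrm2b, was higher.

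The largest falls among these other genes that passed the test were in E2f2, Ccne1 and E2f8. E2f2, an activator of S-phase genes, had 43.5, 46.7 and 31.3 normalised CPM in the controls and 14.01, 11.7 and 15.6 with PhenDC3 (log2 fold change −1.56 ± 0.18, adjusted p = 0.000336). Ccne1 (cyclin E1), which drives Cdk2 at the entry to S phase, had 269.8, 272 and 267 normalised CPM in the controls and 103, 87.9 and 91.3 with PhenDC3 (log2 fold change −1.52 ± 0.11, adjusted p = 6.77e-05). In both genes the PhenDC3 samples lay far below the controls. E2f8, a repressor of the same genes, had 47.96, 46.6 and 69.05 normalised CPM in the controls and 23.2, 15.2 and 27.8 with PhenDC3, also without overlap (log2 fold change −1.31 ± 0.23, adjusted p = 0.00284).

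The largest rises among those that passed the test were in Rb1, Rrm2b and Tfdp2. Rb1, which holds E2F factors inactive, had 11.6, 10.9 and 9.77 normalised CPM in the controls and 30.2, 29.8 and 25.3 with PhenDC3, all PhenDC3 samples standing far above all controls (log2 fold change 1.40 ± 0.13, adjusted p = 0.00016). Rrm2b, the ribonucleotide reductase subunit induced by p53, had 10.1, 6.52 and 9.56 normalised CPM in the controls and 12.8, 13.6 and 14.8 with PhenDC3 (log2 fold change 0.65 ± 0.18, adjusted p = 0.0221), and its call was lost without PhenDC3 replicate 1 (adjusted p = 0.0534) or 3 (0.0751). Tfdp2, a partner of E2F, had 97.98, 95.9 and 112 normalised CPM in the controls and 149, 126 and 151 with PhenDC3 (log2 fold change 0.47 ± 0.12, adjusted p = 0.0145), lost without control replicate 1 (0.0573), PhenDC3 replicate 1 (0.0704) or PhenDC3 replicate 3 (0.057). Neither gene overlapped between the conditions. The fold change of Rbl2, a relative of Rb1, was larger than that of Tfdp2 but missed the threshold (log2 fold change 0.62, adjusted p = 0.0501).

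**Figure D4:**
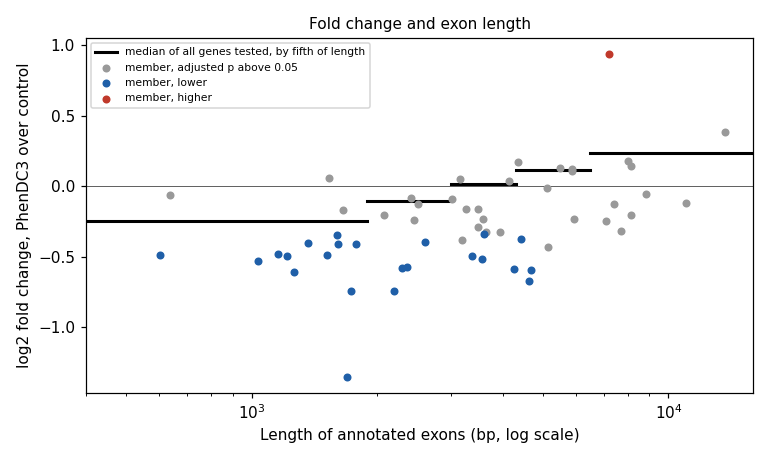
Log2 fold change (PhenDC3 over control, y axis) of the 57 members against the length of their annotated exons (x axis, bp, log scale), coloured by call, with black bars at the median of all genes tested in each quintile of exon length. The black bars run from −0.25 to 0.24, and the 23 members called lower lie below them, mostly on the left, with Ticrr at the top right.

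The fold changes varied with gene length across all genes, and so did the calls among the members. The median log2 fold change of all genes was −0.25 in the quintile with the shortest exons (up to 1890 bp), −0.10, 0.02 and 0.12 in the next ones, and 0.24 in the quintile with the longest (from 6500 bp). By the GC content of exons it ran from 0.13 in the lowest quintile to −0.14 in the highest. Of the 15 members in the shortest quintile, 12 were lower, beside 30.6% of all genes there, and of the 10 members in the longest quintile 0 were lower, beside 9.03%. Ticrr, with 7199 bp of exon, belongs to the longest quintile, and Pold2, with 1694 bp, to the shortest. A correction of each sample for exon length and GC content, added after the data were seen, left 25 members lower, beside 20% of all genes, and Ticrr higher. Among these were 19 of the 23. Those lost were Gins1 (log2 fold change −0.24, adjusted p = 0.0636), Gins4 (log2 fold change −0.20, adjusted p = 0.111), Pole3 (−0.19, adjusted p = 0.281) and Rfc3 (−0.18, adjusted p = 0.14), and Orc3, Wdhd1, Pola1, Pole, Rfc1 and Timeless were gained. Gmnn, Gins2, Rfc2 and Rfc4 kept their calls with smaller log2 fold changes of −0.25, −0.29, −0.29 and −0.29, against −0.48, −0.53, −0.49 and −0.50 without the correction. By group the corrected counts were 4 of 9 licensing, 2 of 8 MCM, 2 of 13 firing, 8 of 11 polymerase, 7 of 11 clamp and 2 of 5 timing and fork genes. Pold2 then stood at −1.16 and Ticrr at 0.75 on the log2 scale.

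Next, the SNS-seq lists were used to ask whether the members' own promoters held an origin. SNS-seq purifies the RNA-primed strands made where replication has just started, and the authors called peaks in each sample against 1 RNase-treated library of its condition. The lists held 120898, 81221 and 79384 peaks for control replicates 1 to 3 and 144116 and 102407 for PhenDC3 replicates 1 and 2, and since they carry no read counts, their depth is unknown. A peak lay within 2 kb of a transcription start of 32, 29 and 18 of the 57 members in the controls (56.1%, 50.9% and 31.6%) and of 24 and 17 with PhenDC3 (42.1% and 29.8%). Over 13850 tested genes with an annotated start, the shares were 67.1%, 64.6% and 39.2% in the controls and 64.3% and 46.1% with PhenDC3. In each of the 5 lists the members' share was thus below that of all genes. With 3 against 2 lists no exact test between the conditions can reach p = 0.05, and none was made.

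**Figure D5:**
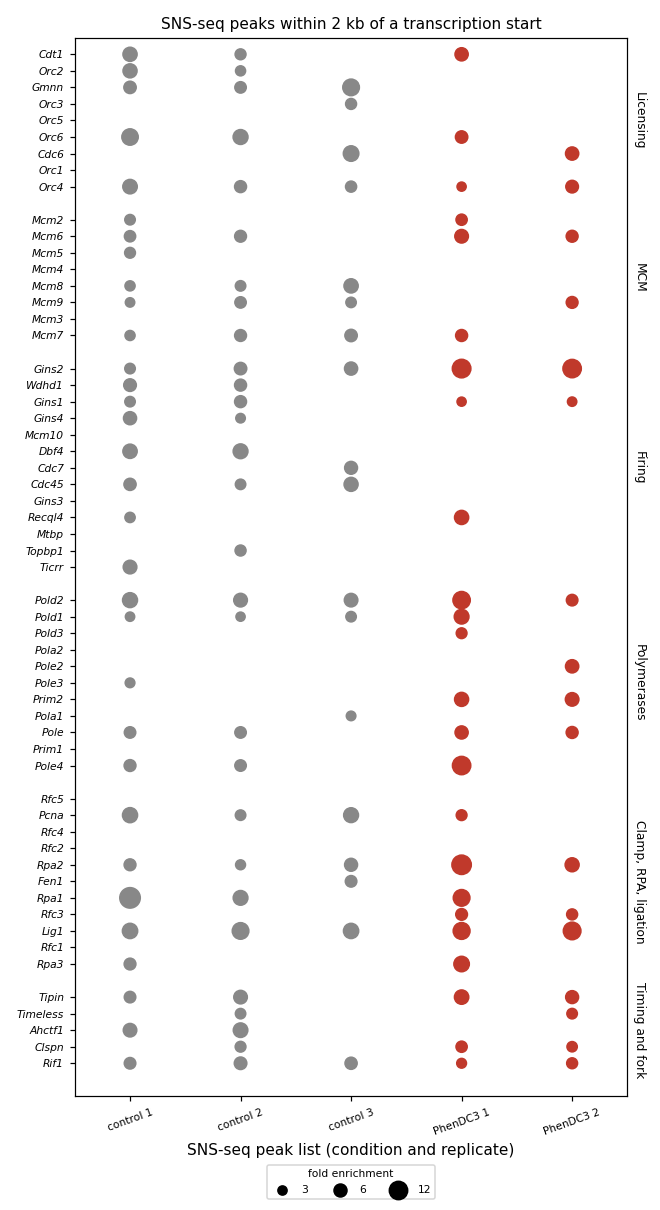
SNS-seq peaks within 2 kb of a transcription start of each member (y axis, by group) in each list (x axis: 3 control replicates in grey, 2 PhenDC3 replicates in red), with the area of a point growing with the highest fold enrichment over the RNase-treated library. An empty place means that no peak was listed, as for 13 members in all 5 lists, and 7 of the 13 firing genes have points only in control columns.

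The plot of peaks by list shows which members kept an origin. A peak was present in all 5 lists for 6 members (10.5%, against 25.9% of all genes): Orc4, Gins2, Pold2, Rpa2, Lig1 and Rif1. At Pold2 the highest fold enrichment was 7.94, 6.62 and 6.50 in the controls and 10.7 and 4.72 with PhenDC3, and at Lig1 it was 8.33, 9.83 and 8.27 against 10.1 and 11.1. At Gins2 it was 3.94, 5.47 and 6.13 against 12.3 and 12.04, and at Rpa2 4.98, 3.50 and 5.97 against 13.4 and 6.98, so that both PhenDC3 lists exceeded all control lists at these genes. At Rif1 it was 4.74, 5.60 and 5.26 against 3.40 and 4.24, both PhenDC3 lists being below all control lists, and at Orc4 it was 7.44, 5.07 and 4.37 against 2.98 and 5.66. None of these differences was tested. The lists of the 2 conditions rest on different RNase-treated libraries, so their fold enrichments do not share a background. Each value is also the highest of a number of peaks that varied between lists. At Gins2 these numbered 2, 3 and 4 in the controls and 2 and 3 with PhenDC3, so the same origin need not be compared. Control lists alone held a peak for 16 members (28.1%, against 13.5% of all genes), among them Ticrr, Orc2, Gmnn, Cdc45 and Ahctf1, and 7 of these 16 were firing genes. At Ticrr the peaks were in control replicate 1 alone, with a highest fold enrichment of 6.61. Topbp1 had a peak in control replicate 2 alone and Cdc7 in control replicate 3 alone. Gins4, Dbf4 and Wdhd1 had peaks in control replicates 1 and 2, and only Cdc45 of these firing genes in all 3 controls. PhenDC3 lists alone held one for 4 members, about the share of all genes (7.02%, against 7.07%). Prim2 and Rfc3 had it in both lists, Pole2 in replicate 2 alone and Pold3 in replicate 1 alone. Some lists of both conditions did so for 18 members, Cdt1, Mcm6 and Pcna included, and no list for 13 (22.8%, against 17.7%), including Rfc1, Rfc2, Rfc4 and Rfc5.

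The members' promoters were then searched for short words bound by cell cycle factors. RefSeq windows of 300 bases, as printed above for Cdt1, Mcm6, Pold2 and Ticrr, were matched for 45 of the 57 members, out of 32851 windows of 27025 genes. An E2F word was found in 19 of the 45 (42.2%), against 4.77% of 11044 tested genes with a window and 2.60% of all genes of the table. The MCM group had one in 5 of 7 promoters, the polymerases in 5 of 9, licensing genes in 4 of 8, the clamp group in 2 of 10 and the firing genes in 2 of 8. Of the 23 lower members 16 had a window, and Gmnn, Gins1, Gins2, Gins4, Prim2, Rfc2 and Tipin had none. Among these 16 an E2F word was found in 6 (37.5%). Among the members with a window that did not pass, 13 of 28 had an E2F word (46.4%). Members with it that did not pass included Cdc6, Orc1, Mcm3, Mcm5 and Mcm7.

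A predicted G4 was found in 10 of the 45 windows (22.2%), against 31.9% of tested genes, with 5 of 16 among lower members (31.2%) and 5 of 28 among those that did not pass (17.9%). None of the 8 firing genes with a window had a G4. The CCAAT word, bound by NF-Y, was in 25 of 45 windows (55.6%, against 43% of tested genes), in all 7 MCM promoters with a window among them. The cell cycle words TTTGAA or TTCGAA (either strand) were in 9 of 45 (20%, against 16.1%). These matches describe the letters of the windows and were given no test.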

How the data were processed

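RNA-seq was analysed in 3 control and 3 PhenDC3 samples, and SNS-seq in 3 control and 2 PhenDC3 samples. RNA-seq libraries (TruSeq Stranded mRNA) were mapped by the authors with TopHat2 2.1.1, and the deposited values are raw gene counts from HTSeq 0.6.1p1. The annotation and strand setting of the counting are not given in the sources used here. SNS-seq reads were mapped to mm10 by the authors after trimming, and narrow peaks were called for each sample by MACS2 2.1.0, with the RNase-treated library of the condition as background, and filtered on SICER regions. Each deposited list gives a peak its fold enrichment and −log10 p, the latter used only as a threshold. The authors' own comparison (DESeq2 fold changes and p-values) and their normalized pseudo-counts were not used. In the series tables, 0 columns lacked a sample.

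Counts were tested with edgeR 4.0.16 in R 4.3.3 (robust quasi-likelihood fit, relative log expression normalization, filterByExpr, no block), with Benjamini-Hochberg adjusted p-values over the tested genes and a threshold of 0.05, and the script was tested on simulated counts. Alternatives were DESeq2 1.42.0, TMM and upper quartile normalization, no filter, the replicate block and the omission of each sample. A correction for exon length and GC content (lowess per sample, span 0.3), alone and with the block, and the removal of Rn45s were added after the data were seen. Exon lengths, starts and overlaps come from RefSeq on GRCm38.p6. A peak was assigned to a gene when it overlapped the 2 kb on either side of a start.

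The members, lists and tests were chosen with earlier results of these data known. Values per sample were given for called members, for those whose proteins the paper names and for the highest and lowest fold change of each group, and, after their values were seen, for their partners Gins3, Topbp1, Pole, Rfc1, Lig1 and Timeless. Of the other pathway genes, the 3 largest rises and the 3 largest falls with an adjusted p of at most 0.05 were named. Rbl2 and Pold4 were added after their values were seen.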

Additional observations from a re-analysis of the deposited data

How the results depend on the processing

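Under TMM, DESeq2, no filter on low counts and without Rn45s, the same 23 members were lower and 1 higher. Upper quartile scaling left 21 lower, losing Gins4 and Rfc3, and moved Cdc6 to 0.0096 on the log2 scale. With 1 sample left out, 14 to 25 members were lower and 1 to 2 higher, and 1623 to 2727 of all genes were lower. The count of 14 came without PhenDC3 replicate 1, which also gave the 1623, and a count of 15 without PhenDC3 replicate 3. In these fits the log2 fold changes of 4 of the 37 members named by rule crossed 0, none of them called: Cdc6 (−0.11 to 0.043), Mcm3 (−0.22 to 0.088), Ahctf1 (−0.21 to 0.18) and Mcm7 (−0.020 to 0.13). Under the exon length and GC correction, Rpa3 moved to 0.13, Mtbp to −0.051 and Orc4 to −0.12, and with the replicate block added to 0.13, −0.055 and −0.12. The cause was not tested.

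With the replicate block, 33 members were lower and 2 higher (Ticrr and Rif1), with 3797 of all genes higher and 26.4% lower. Block and correction together gave 34 lower and 2 higher (Ticrr and Prim1), beside 27.7% of all genes lower. All 23 calls were kept with the block alone and 20 with both. Deviations from the condition means of samples with the same number correlated at 0.10, 0.63 and 0.49 over genes (cross-number values −0.54 to 0.09). Every sample thus correlated best with its own number, though for replicate 1 only at 0.0983. The running numbers in the column names also place control and PhenDC3 samples of the same number next to each other. The labels do not say whether the numbers are pairs, and these values do not settle it.

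Counting only peaks upstream of the start gave 21 members in control replicate 1 and 9 in PhenDC3 replicate 2. The other counts under the alternatives for peaks stayed within 1.5 times. The SNS-seq lists carry no depth, so shares of members with a peak have no error beyond the spread between lists. With 3 RNA-seq samples per condition, a gene that did not pass is not shown to be without change.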
